A study of Mus musculus with 8 samples.

Results

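The miR-344 family was examined in the prefrontal cortex of mice, through 8 mature miRNA names of the deposited files: mmu-miR-344-3p, mmu-miR-344-5p, mmu-miR-344b-3p, mmu-miR-344c-3p, mmu-miR-344d-3p, mmu-miR-344e-3p, mmu-miR-344f-3p and mmu-miR-344g-3p (mmu marks the mouse). Earlier results of these data were known when these names were chosen. All 8 were present among the 1915 mature names that each library lists. The files hold 11 further rows of the same family, 10 of which are the remaining arms and letters and 1 of which (miR-344i) carries no arm, and these are described beside the members. Small RNA was sequenced from the dissected prefrontal cortex of 12-week-old C57BL/6 mice, with 4 libraries of the wild type (numbered 1, 2, 3 and 4) and 4 of the Fkbp5 Knockout (numbered 1, 2, 4 and 5). The product of Fkbp5 works with Hsp90 and dampens glucocorticoid receptor signalling. No treatment is named in the labels for either genotype, and how the knockout allele was made is not given in the sources used here. Whether each library came from its own animal is not stated, and p-values thus reflect only the spread among these 8 samples, which may be technical.

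A miRNA is cut from a hairpin precursor, which can release a product from its 5′ arm (5p) and a product from its 3′ arm (3p). Usually 1 arm is kept and the other is degraded. The bases from position 2 to position 8 of the product, the seed, do most of the pairing with target messenger RNAs, so products with the same seed are expected to share many predicted targets. The miR-344 family is known from rodents and from brain RNA. Its mouse hairpins lie beside Ndn, Magel2, Mkrn3 and Peg12, paternally expressed genes of the imprinted region that corresponds to the human Prader-Willi locus.

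All 19 family rows matched a RefSeq sequence (build GRCm38.p6), and they carry 11 different seeds, 6 of them among the 8 members. The member sequences are printed 5′ to 3′ with the seed in capitals, since the seeds separate the abundant members.
miR-344-3p: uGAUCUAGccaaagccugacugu
miR-344c-3p: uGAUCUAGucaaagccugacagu
miR-344b-3p: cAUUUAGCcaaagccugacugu
miR-344d-3p: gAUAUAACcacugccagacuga
miR-344e-3p: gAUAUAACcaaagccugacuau
miR-344f-3p: cUCUAGCCaggaccugacuac
miR-344g-3p: cAGGCUCUagccaggggcuuga
miR-344-5p: aGUCAGGCuccuggcuagauuccagg
miR-344-3p and miR-344c-3p share a seed and differ at 2 of 23 bases, C9U and U21A (the base of miR-344-3p first, positions counted from 1 at its 5′ end). miR-344b-3p, aligned with miR-344-3p at the 3′ end, differs at 2 of 22 bases, G2C and C5U in the numbering of miR-344-3p. Both changes lie within the seed of miR-344-3p, and miR-344b-3p also starts 1 base later, so its seed is different although 18 bases in a row are the same. miR-344d-3p and miR-344e-3p have the same seed and differ at 5 of 22 bases, all outside it (C11A, U12A, A16U, G21A and A22U).

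The 13 hairpins lie on the minus strand of chromosome 7 within 402.2 kb, from 61683124 to 62085310 (GRCm38). In the GENCODE M21 annotation 7 of them lie in introns of A230057D06Rik, a long non-coding RNA gene transcribed from the same strand (61704519 to 61928690): Mir344d-3, Mir344e, Mir344h-1, Mir344h-2, Mir344b, Mir344c and Mir344. Mir344-2 lies in an intron of a second non-coding gene of that strand, A330076H08Rik (61930137 to 61982358), and Mir344g overlaps an exon of it. Mir344d-1, Mir344d-2, Mir344f and Mir344i have no host on their strand. Ndn starts 263 kb beyond the last hairpin. Several products come from more than 1 hairpin: miR-344d-3p is encoded identically by Mir344d-1, Mir344d-2 and Mir344d-3, and miR-344-3p by Mir344 and Mir344-2. A value for either therefore does not say which hairpin it came from.

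**Figure D1:**
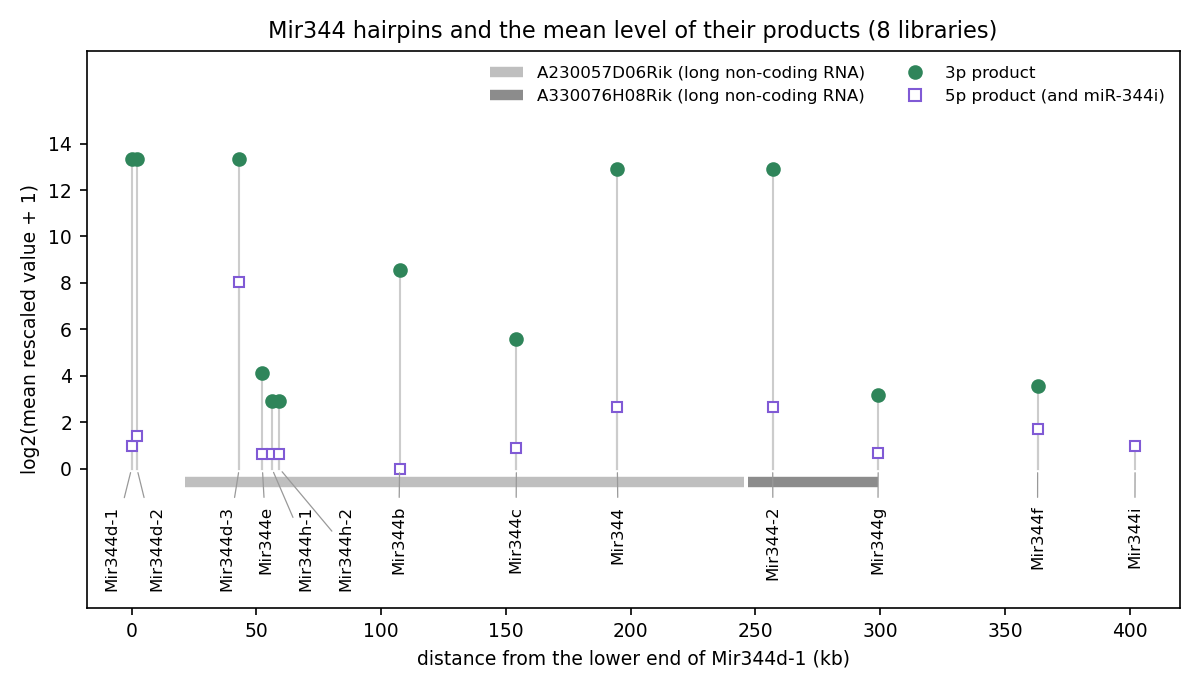
Position of the 13 Mir344 hairpins (distance from the lower-coordinate end of Mir344d-1, in kb) and the mean level of each product over 8 libraries, as log2(mean rescaled value + 1); filled circles are 3p products, open squares 5p products and miR-344i, and grey bars the GENCODE spans of the 2 non-coding host genes. A product encoded by several hairpins is drawn in full at each, and the highest points belong to miR-344d-3p (mean 10388) and miR-344-3p (mean 7584).

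The tissue and the depth were checked first. The values of a library summed to between 16.2 and 21.6 times 1000000. All 10 neuronal marker miRNAs were above 0 in every library and held 25.6% to 34.0% of each library's total. Markers of other cells held far less: 0.298% to 0.567% for endothelium and smooth muscle, 0.0628% to 0.0937% for oligodendrocytes, 0.0438% to 0.0707% for microglia and leukocytes, 0.0373% to 0.0590% for choroid plexus, 0.0153% to 0.0281% for red blood cells, and 0.00113% to 0.00318% for hindbrain and spinal cord. Markers of olfactory bulb and epithelium held 0.00146% to 0.0208%, the widest relative range of these lists, with summed rescaled values of 527 to 3706 in wild type and 295 to 2121 in the knockout. Other lists shifted too: hindbrain and spinal cord ran from 373 to 613 in wild type and 211 to 480 in the knockout. Endothelium and smooth muscle ran from 75223 to 100870 and 55242 to 85095, and choroid plexus from 7710 to 11753 and 7592 to 8234. The sum for microglia and leukocytes went the other way, from 8719 to 10611 and 9150 to 13065, but miR-150-5p made up most of it. The log2 fold change, knockout minus wild type, was 0.17 ± 0.14 (SE) for miR-150-5p and 0.01 ± 0.23 for miR-142a-3p. It was -0.37 ± 0.17 for miR-142a-5p and -0.35 ± 0.29 for miR-223-3p, which are also in this list. The higher sum thus does not describe the list as a whole. For the remaining lists the knockout range lay within that of wild type. Oligodendrocytes ran from 11715 to 18652 in wild type and 11808 to 15144 in the knockout. Red blood cells ran from 3042 to 5251 and 3795 to 4878, and neurons from 4548990 to 6336400 and 4675280 to 6270540. The genotypes overlapped in each of these lists. The part of such differences in the values below was not tested.

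Cortex held a small number of abundant miR-344 products and many near 0. Values are given after rescaling between libraries, in the units of the deposited value. Mature miRNAs are of nearly equal length (20 to 26 bases here), so levels are compared without a length correction. How evenly different sequences were captured in the libraries was not measured. Comparisons between miRNAs, seeds or arms are thus of the listed values, which may differ from the amounts in the tissue. Together the 19 rows took 1024 ± 147 per 1000000 of a wild-type library and 972 ± 185 per 1000000 of a knockout library (SD, n = 4 each). miR-344d-3p made up 54.7 ± 5.24% of the family's value in wild type and 57.6 ± 4.69% in the knockout. miR-344-3p made up 41.4 ± 5.20% and 38.5 ± 4.59%. The pair held between 95.7% and 96.5% of the family in each of the 8 libraries.

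miR-344d-3p was the most abundant member and the steadiest. In wild type the rescaled values of mmu-miR-344d-3p were 11765.3, 10234.8, 9784.8 and 10153.3 in replicates 1, 2, 3 and 4. In the knockout they were 9368.0, 10756.2, 10123.0 and 10921.7 in replicates 1, 2, 4 and 5. The groups overlapped, and the highest library was 1.26 times the lowest. With a mean of 10388 it ranked 67 of the 599 miRNAs tested, which are those with a value of 10 or more in 4 or more libraries once brought to the size of the median library.

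mmu-miR-344-3p came next, at rank 85, and varied more. Its rescaled values were 11383.0, 6211.3, 6349.0 and 8695.7 in wild type and 4839.0, 6673.7, 7863.7 and 8657.0 in the knockout, in the same replicate order. Wild-type replicate 1 was the highest and knockout replicate 1 the lowest library, 2.35-fold apart, and the other 6 lay in between with the groups mixed. miR-344d-3p exceeded miR-344-3p in all 8 libraries, by 1.03-fold in wild-type replicate 1 to 1.94-fold in knockout replicate 1, although the ranges of the 2 rows overlapped. The ratio of miR-344d-3p to miR-344-3p was 1.35 ± 0.294 for wild type and 1.52 ± 0.317 for the knockout (SD, n = 4), a difference smaller than its spread.

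mmu-miR-344b-3p stood a step lower, at 539.1, 357.1, 294.8 and 367.9 in wild type and 287.1, 347.8, 392.8 and 435.3 in the knockout. Its mean was 20.1-fold below that of miR-344-3p, and its range did not overlap that of miR-344-3p, with which it shares its last 18 bases. Within libraries it was 4.23% to 5.93% of miR-344-3p. mmu-miR-344c-3p, the member that shares the seed of miR-344-3p, was at 60.3, 52.8, 23.9 and 57.5 in wild type and 34.4, 34.8, 36.1 and 70.5 in the knockout. It was 0.376% to 0.850% of miR-344-3p. Among names with a RefSeq sequence, nearly all product with the seed GAUCUAG thus came under the name miR-344-3p. Knockout replicate 5 was well above the other 3 knockout libraries, and wild-type replicate 3 was the lowest.

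mmu-miR-344e-3p was the least abundant member tested, at 25.1, 15.7, 6.0 and 10.9 in wild type and 20.7, 15.3, 21.4 and 14.1 in the knockout. Its highest and lowest libraries, both wild type, were 4.20-fold apart. It was 0.0610% to 0.221% of miR-344d-3p, whose seed it shares.

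The remaining 3 members were near the limit of what these libraries show, did not reach the level for testing, and are described by their values with no test. miR-344f-3p was at 19.5, 9.1, 8.4 and 17.4 in wild type and 9.2, 5.1, 5.8 and 12.3 in the knockout, with overlapping groups. miR-344g-3p was at 8.4, 6.6, 6.0 and 8.7 in wild type and 5.7, 11.3, 6.8 and 11.5 in the knockout. miR-344-5p, the other arm of the hairpins that give miR-344-3p, was at 3.7, 3.3, 0.0 and 10.9 in wild type and 6.9, 8.2, 1.9 and 7.0 in the knockout. Neighbours in the order of levels could not be separated in this range: miR-344e-3p exceeded miR-344f-3p in 6 of 8 libraries, and miR-344f-3p exceeded miR-344g-3p in 6 of 8.

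**Figure D2:**
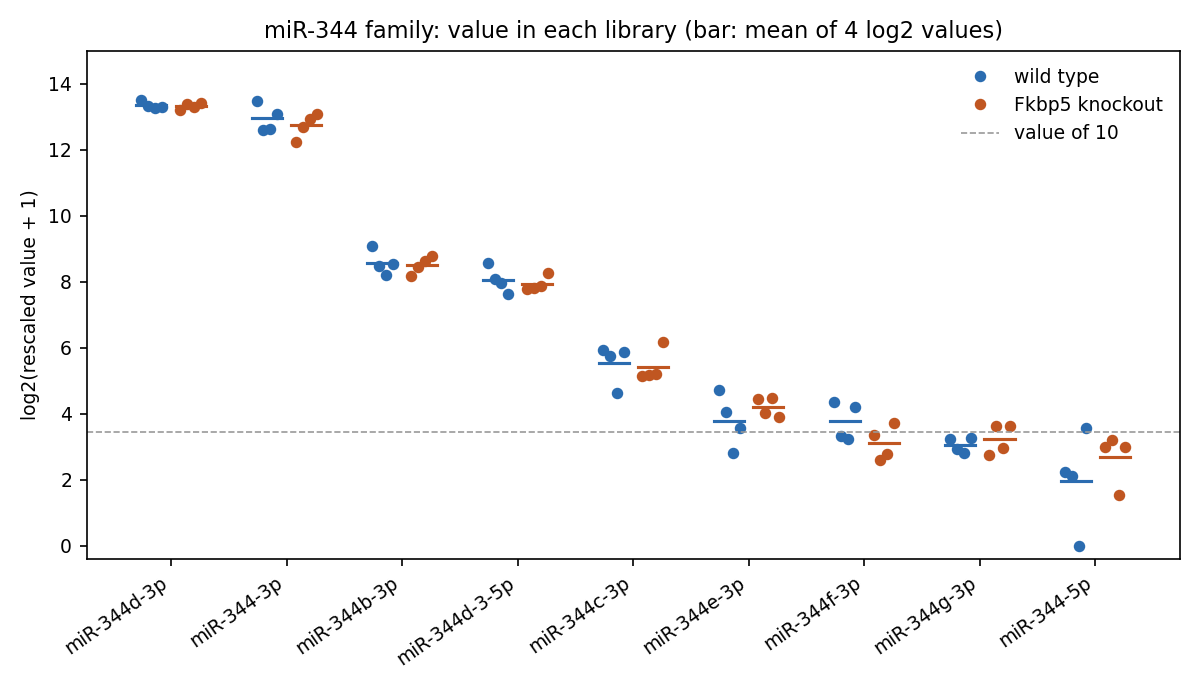
Value of each of the 8 members and of miR-344d-3-5p in each library, as log2(rescaled value + 1), with wild-type libraries in blue, Fkbp5 knockout libraries in orange and a bar at the mean of the 4 log2 values; the dashed line marks a value of 10. The members fall from 10388 for miR-344d-3p to 5.24 for miR-344-5p on average, and the genotypes overlap in every row.

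The 5p arms had lower mean values than the 3p arms of the same hairpins throughout the family. miR-344-5p was at most 0.142% of miR-344-3p in any library, and miR-344b-5p was listed at 0 in all 8. The 3 hairpins that encode miR-344d-3p release 5p products of different sequence, so these show which of the 3 gave a 5p product. They are printed as whole hairpins, with the 5p and then the 3p product in capitals, to show that the 3p arms are the same and the 5p arms are not.
Mir344d-1: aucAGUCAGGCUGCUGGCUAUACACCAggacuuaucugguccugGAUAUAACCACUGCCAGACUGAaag
Mir344d-2: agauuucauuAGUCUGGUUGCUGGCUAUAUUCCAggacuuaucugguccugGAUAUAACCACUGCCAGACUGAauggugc
Mir344d-3: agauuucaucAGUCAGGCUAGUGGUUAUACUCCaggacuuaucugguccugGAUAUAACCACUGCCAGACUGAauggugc
They lie at chr7:61683124-61683192, chr7:61685272-61685351 and chr7:61726249-61726328, all on the minus strand (GRCm38). Compared with miR-344d-1-5p, miR-344d-3-5p differs at 4 of 23 bases (G10A, C11G, C15U and A21U) and miR-344d-2-5p at 4 of 24 (A5U, C8U, C20U and A21U).

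Only the 5p arm of Mir344d-3 was measured at more than a trace among these 3. miR-344d-3-5p had rescaled values of 376.7, 268.8, 245.8 and 195.4 in wild type and 219.3, 224.0, 232.0 and 304.0 in the knockout. miR-344d-1-5p was above 0 in 3 of 8 libraries and reached a deposited value of 5 at most, as did miR-344d-2-5p, which was above 0 in 7. miR-344d-3-5p was 1.92% to 3.20% of miR-344d-3p. It was also the most abundant of the 10 rows named as 5p arms, ranking 302 among tested miRNAs, between miR-344b-3p and miR-344c-3p. Its seed, GUCAGGC, is shared with 5 other 5p arms of the family, among them miR-344-5p, and with no miRNA outside it among the 1623 names with a RefSeq sequence.

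No member repeated the values of any other row. Names that share a sequence can carry the same values, and in these files 53 groups of names above 0 were identical in all 8 libraries, 13 of them with a value of 10 or more in some library. None of the 53 held a member. The 1 family pair among them was miR-344e-5p and miR-344h-5p, whose 20 bases are the same and which were both listed at 4 in wild-type replicate 2, at 1 in knockout replicate 1 and at 0 elsewhere. miR-344h-3p, encoded by Mir344h-1 and Mir344h-2 and differing from miR-344e-3p at 3 of 22 bases (A2G, U16C and A21G), had a mean of 6.74 ± 3.12 in the wild-type group and 6.20 ± 4.15 in the knockout group (SD, n = 4). Of the 11 family rows outside the members, only miR-344d-3-5p was tested.

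The seed of miR-344d-3p also occurs outside the family. miR-410-3p, a miRNA of the imprinted Dlk1-Dio3 cluster on chromosome 12 (109743764 to 109743784), has the same 7 bases and then a different tail, with 14 of 21 aligned bases differing.
miR-410-3p: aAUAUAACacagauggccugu
miR-344d-3p: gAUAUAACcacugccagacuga
miR-344d-3p was the more abundant of the pair in all 8 libraries, by 3.57 ± 0.618-fold in wild-type libraries and 3.33 ± 0.101-fold in those of the knockout (SD, n = 4). Over the names with a RefSeq sequence, miR-344d-3p held 74.7% to 80.9% of the summed value under the seed AUAUAAC. miR-410-3p held 18.9% to 25.2%, and miR-344e-3p at most 0.172%. miR-410-3p itself was at 2750.4, 3443.8, 2518.1 and 3235.4 in wild type and 2788.1, 3198.7, 3179.4 and 3196.1 in the knockout. Its log2 fold change was 0.06 ± 0.12 (SE; adjusted p = 0.999 by limma). Among the 1623 names with a RefSeq sequence, the only other seed mate of a member outside the family was miR-7070-3p. It shares the seed of miR-344g-3p, was above 0 in 2 of 8 libraries and reached a deposited value of 3.

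The comparison of genotypes asks whether loss of Fkbp5 goes with a different level of these miRNAs. Of the 5 members tested, 0 rose and 0 fell in the knockout by limma with Benjamini-Hochberg adjustment over all 599 miRNAs at 0.05. Over all miRNAs 0 passed as well (0% called). At an unadjusted p under 0.05 the counts were 0 of 5 members and 25 of 599 miRNAs (4.17%). Groups did not overlap for 0 of 5 members and for 12 of 599 miRNAs (2%). The mean log2 value was lower in the knockout for 4 of 5 members and for 278 of 599 miRNAs (46.4%). The median log2 fold change was -0.07 over the tested members and 0.01 over all tested miRNAs. In tissue made of many cell types, fewer cells of a type and less RNA per cell cannot be told apart.

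Among the tested members, miR-344d-3p had the narrowest interval after rescaling. The group means were 10485 ± 876 for wild type and 10292 ± 706 for the knockout (SD, n = 4). The log2 fold change was -0.03 ± 0.10 (SE), and the 95% interval of the fold ran from 0.841 to 1.15. On the values as deposited, without rescaling, the log2 fold change was -0.03 ± 0.21 (SE). miR-344-3p averaged 8160 ± 2433 and 7008 ± 1660, a log2 fold change of -0.21 ± 0.22, with an interval from 0.621 to 1.21. For miR-344b-3p the means were 389.7 ± 105 and 365.7 ± 63.5 (-0.07 ± 0.20, interval 0.707 to 1.28). For miR-344c-3p they were 48.6 ± 16.8 and 43.9 ± 17.7 (-0.13 ± 0.33, interval 0.555 to 1.51). miR-344e-3p had the widest interval, 0.754 to 2.42, around a log2 fold change of 0.44 ± 0.38, so a 2-fold higher level is not excluded for it. The adjusted p by limma was 0.999 for each of these 5. Fold changes are on the log2(value + 1) scale, which understates changes of low miRNAs such as miR-344e-3p.

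For miR-344b-3p, miR-344c-3p and miR-344d-3p the sign of the difference changed when a single library was left out, and for miR-344-3p and miR-344e-3p it did not. Without wild-type replicate 1, the highest library for all tested members but miR-344c-3p, the log2 fold change was -0.03 for miR-344-3p, 0.10 for miR-344b-3p, 0.01 for miR-344c-3p and 0.04 for miR-344d-3p. Without knockout replicate 1 it was -0.04 for miR-344-3p, 0.04 for miR-344b-3p and 0.02 for miR-344d-3p. The value of miR-344e-3p fell to 0.12 without wild-type replicate 3, its lowest library, and was 0.75 without wild-type replicate 1. In the 6 libraries whose replicate numbers occur in both genotypes, without wild-type replicate 3 and knockout replicate 5, miR-344c-3p was at -0.67 and miR-344-3p at -0.42, and neither passed the threshold by limma (adjusted p = 0.509 and 0.792).

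**Figure D3:**
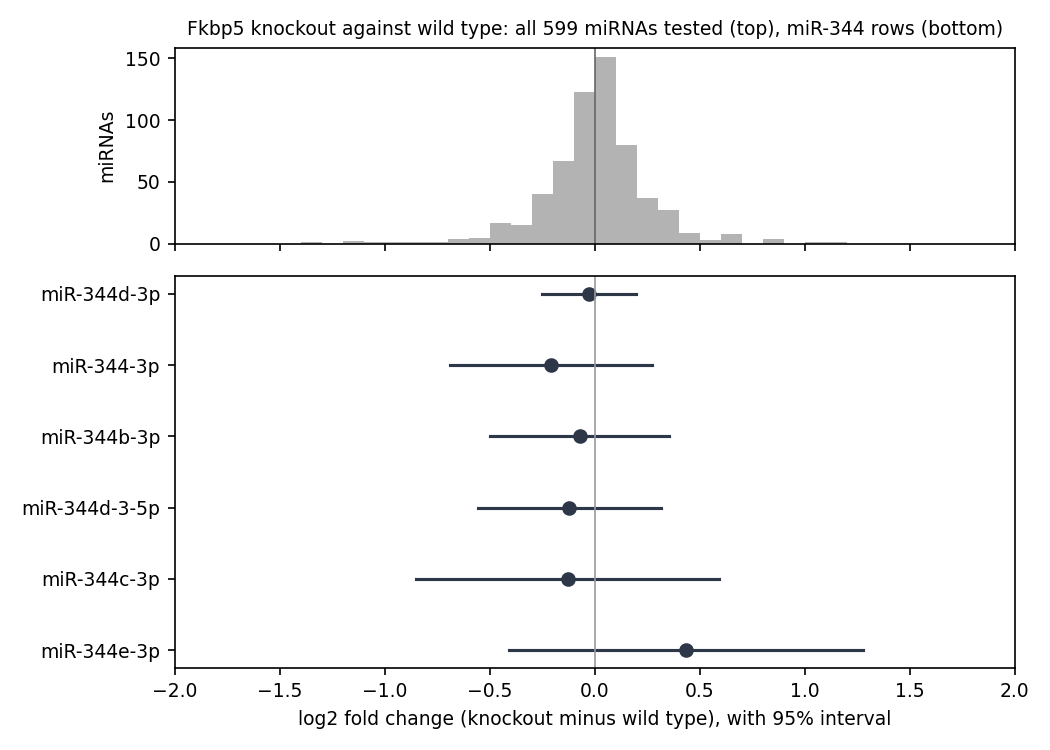
Log2 fold change, knockout minus wild type, for all 599 miRNAs tested (top, histogram of the number of miRNAs) and for the 6 tested miR-344 rows with 95% intervals (bottom). Every interval crosses 0, that of miR-344d-3p is the narrowest (log2 -0.25 to 0.20) and that of miR-344e-3p the widest (-0.41 to 1.28).

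The balance between the arms of Mir344d-3 was also alike within error. The group means of miR-344d-3-5p were 271.7 ± 76.5 for wild type and 244.8 ± 39.8 for the knockout (SD, n = 4; log2 fold change -0.12 ± 0.20, adjusted p = 0.999 by limma). Set against miR-344d-3p in the same library, it came to 2.57 ± 0.524% among wild-type libraries and 2.37 ± 0.295% among knockout libraries. The log2 change in that ratio was -0.10 ± 0.19 (SE), with a 95% interval of -0.51 to 0.31 and an adjusted p of 0.974 by limma. Over the 141 hairpins whose arms are paired by name and both reach a mean of 20, 0 passed 0.05 (0% called) and 3 had an unadjusted p under 0.05 (2.13%). miR-344d-3p sums 3 hairpins, so this ratio is not that of Mir344d-3 alone, and the pair was added after the names had been seen. When the mean asked of each arm was lowered to 5, miR-344 entered with a log2 change in its ratio of 1.08 ± 0.80 (SE; adjusted p = 0.977 by limma). That ratio rests on a 5p arm near the floor. Its deposited values were 4, 4, 0 and 10 in wild type and 6, 8, 2 and 8 in the knockout. How far the 0 in wild-type replicate 3 sets the change was not tested.

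The 3 most abundant members varied together across libraries by Pearson's r, but no pair passed adjustment by Spearman's rho. Over the 8 libraries, log2 values of miR-344-3p and miR-344b-3p had a Pearson correlation of 0.917 (two-sided exact permutation p = 0.00134, adjusted over 15 pairs 0.0167) and a Spearman correlation of 0.857 (exact p = 0.0107, adjusted 0.0804). For miR-344b-3p and miR-344d-3p Pearson's r was 0.909 (exact p = 0.00223, adjusted 0.0167) and Spearman's rho 0.762 (exact p = 0.0368, adjusted 0.138). For miR-344-3p and miR-344d-3p they were 0.832 (exact p = 0.00995, adjusted 0.0497) and 0.667 (exact p = 0.0831, adjusted 0.206). All 15 correlations among the 6 tested rows were positive, 3 passed 0.05 after adjustment by Pearson's r and 0 by Spearman's rho. With each genotype's mean removed these 3 were 0.927, 0.907 and 0.837. Without the 2 libraries farthest from the median of the first row they were 0.745, 0.672 and 0.329. All 3 were lower without those libraries, and the last fell most. Leaving out the farthest values also narrows the range of the first row, which can lower r by itself. The falls therefore cannot show how far the correlations rest on those libraries. The points share the 8 libraries and their rescaling. How often other pairs of tested miRNAs correlate as strongly was not examined.

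**Figure D4:**
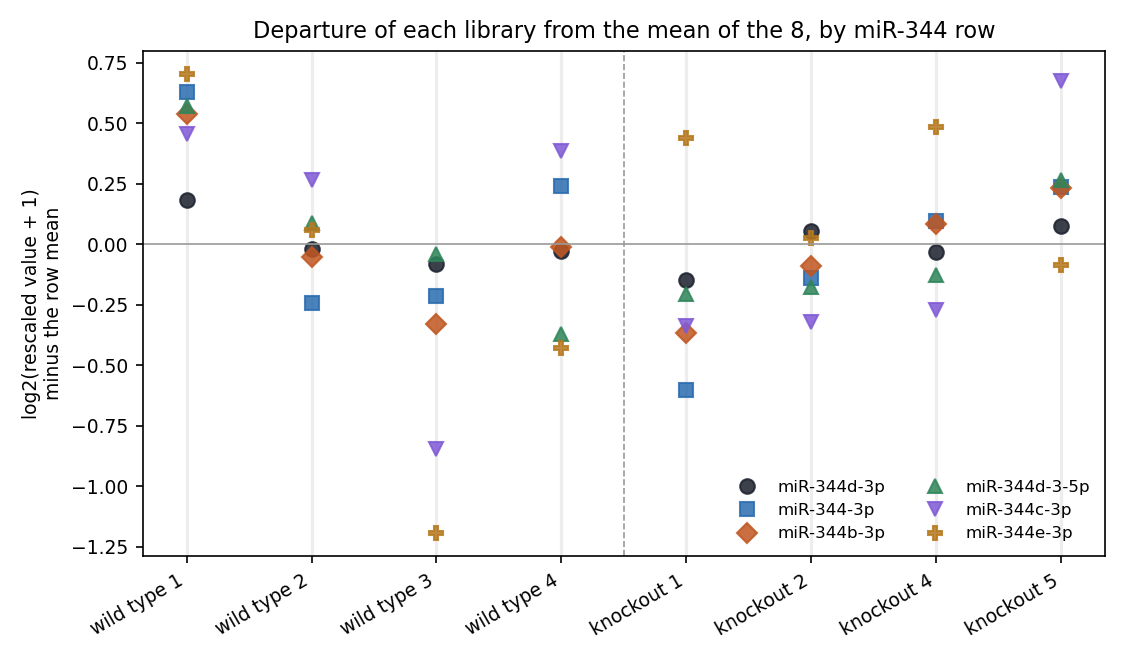
Departure of each library from the mean of the 8 on the log2(rescaled value + 1) scale, for the 6 tested miR-344 rows; the dashed line separates wild-type from knockout replicates. Wild-type replicate 1 lies above the row mean in all 6 rows, and miR-344d-3p has the smallest spread of the 6.

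The pattern of miR-344d-3p was also set against miRNAs outside the family. With genotype means removed, the 5 of 593 other tested miRNAs with the highest Pearson correlation over the 8 libraries were miR-325-5p (0.951), miR-412-3p (0.902), miR-138-2-3p (0.885), miR-337-5p (0.881) and miR-450a-1-3p (0.866). Against the same member, miR-344b-3p reached 0.907, miR-344-3p 0.837, miR-344d-3-5p 0.753, miR-344c-3p 0.612 and miR-344e-3p 0.450. Placed among the 593, these family rows would rank 2, 10, 24, 65 and 121 in that order. These outside miRNAs were picked as the highest of many over few libraries, so the values describe these libraries and carry no test.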

How the data were processed

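Each of the 8 files holds 1 library with 1 value for each of 1915 mature miRNAs. The column headers of the deposited files read normalized count, so each value was treated as a score without a fixed unit, although the deposited values are whole numbers with unequal totals and no scaling is visible. The submitters' processing notes list edgeR, HTSeq 0.6.1p1, Bowtie 1.1.2 and cutadapt 1.11, with the build mm10. How reads that match several hairpins were counted is not given in the sources used here. Without read counts, no counting interval is given.

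Values were rescaled by an unweighted trimmed mean of log ratios (30% of ratios and 5% of levels trimmed, factors 0.838 to 1.21). A miRNA was tested with 10 or more, at the size of the median library, in 4 or more libraries and a sum of 15 or more: 599 were, holding 99.99% of all values. Genotypes were compared on log2(value + 1) in limma 3.58.1 under R 4.3.3 (moderation with a mean-variance trend, Benjamini-Hochberg adjustment at 0.05). Arm ratios were log2((5p + 0.5)/(3p + 0.5)). Both fits were tested on simulated data. Correlations used exact permutations in Python 3.11.15. Named outside the family were seed mates, rows with a member's values, and the 5 miRNAs most like the most abundant member. The members and lists were chosen with earlier results of these data known. Alternatives were other scalings, pseudocounts and filters, no trend, identical rows counted once, a replicate block, and leaving out each library. Sequences are from RefSeq (GRCm38.p6) and host genes from GENCODE M21, both on GRCm38, the assembly that mm10 names.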

Additional observations from a re-analysis of the deposited data

Results flagged for a closer look

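In 3 of 20 sets of 4 same-genotype values, a single library was distant from its group by Dixon's criterion, and about 1 set in 20 would be by chance. All values are rescaled. miR-344c-3p was at 70.5 in knockout replicate 5 and at 34.4 to 36.1 in the remaining knockout libraries. In the same library miR-344d-3-5p was at 304, against 219 to 232. For miR-410-3p, the seed mate of miR-344d-3p, knockout replicate 1 was low at 2788, against 3179 to 3199. miR-7070-3p, at 0 in 3 libraries of each genotype, was not examined. The sets are not independent, since the rows share their libraries.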

How the results depend on the processing

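Of 118 alternative values for the 6 tested miR-344 rows, 111 kept their direction and 7 changed it, and 0 passed the threshold. The 7 were miR-344d-3p with upper quartile scaling (0.032), when wild-type replicate 1 (0.036) or knockout replicate 1 (0.019) was left out, miR-344b-3p without the same libraries (0.0998 and 0.038), and miR-344c-3p (0.00598) and miR-344d-3-5p (0.053) without wild-type replicate 1. With 1 library left out, the log2 fold changes ran from -0.33 to -0.03 for miR-344-3p, -0.19 to 0.10 for miR-344b-3p, -0.43 to 0.00598 for miR-344c-3p, -0.063 to 0.036 for miR-344d-3p, -0.27 to 0.05 for miR-344d-3-5p and 0.12 to 0.75 for miR-344e-3p. The arm ratio of miR-344d-3 ran from -0.23 to 0.017, and miR-410-3p from -0.013 to 0.13. Upper quartile scaling moved the median of all miRNAs from 0.01 to 0.07.

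Whether equal replicate numbers mean a pairing is not stated. Libraries with the same number had correlated deviations of 0.0652, -0.0385 and 0.132, and in 0 of the 3 was the partner the closest library. A replicate block on the 6 libraries numbered 1, 2 and 4 gave 4 miRNAs past the threshold, 0 of them members, and 2 arm ratios, against 0 of each in the main comparison. In those 6 libraries, which leave out wild-type replicate 3 and knockout replicate 5, the log2 fold change of miR-344c-3p was -0.67, by limma with SE 0.27 (adjusted p = 0.469) under the block and SE 0.22 (adjusted p = 0.509) without it. At an unadjusted p under 0.05, 1 member was counted either way, against 0 in all 8 libraries. Over all miRNAs that count rose as well, to 45 under the block and 40 without it, against 25 in all 8 libraries. miR-344-3p was at -0.42 (adjusted p = 0.662 under the block), miR-344b-3p at -0.28 and miR-410-3p at -0.030. The unadjusted count of 25 miRNAs became 51 without a filter and 14 at 10 per 1000000, where miR-344c-3p and miR-344e-3p were no longer tested. The cause of the other shifts was not tested. Values near 10, as for miR-344e-3p, limit what can be seen.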
